A study of Mus musculus with 12 samples.

Results

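The genes described are the troponins and tropomyosins of striated muscle, 9 of the 22923 gene symbols measured in mouse hind limb muscle. They were chosen by symbol and not by their values, though with earlier results of these data known. Of these, 4 mark slow fibres (Tnni1, Tnnt1, Tnnc1 and Tpm3), 4 mark fast fibres (Tnni2, Tnnt3, Tnnc2 and Tpm1), and Tpm2, the beta tropomyosin that both fibre types use, was kept apart. All 9 were listed once, none was at 0 in any library, and all 9 were among the 11945 genes expressed highly enough to be tested. The libraries were made from proximal hind limb muscle of male FVB mice (FVB/N in the methods of the study) aged 22 weeks, with 3 mice in each of 4 groups. WT mice, whose libraries are titled Flox, and littermate KO mice, in which Cryab and Hspb2 were both deleted in every tissue, were fed normal chow or, from the age of 6 weeks, a high fat diet with 60% of its energy from fat. The sample was whole muscle tissue, and which muscles of the region entered each library is not given in the sources used here.

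Troponin is the calcium switch of the thin filament. Troponin C binds calcium, troponin I holds the filament off in its absence, and troponin T anchors both to tropomyosin, a coiled coil that lies along actin and covers or uncovers its myosin binding sites. Slow and fast fibres build this switch from different genes, so that the ratio of a slow gene to its fast partner is widely used as a transcript measure of fibre type make-up. The hind limb of the mouse is made mostly of fast fibres, and the soleus is its best known slow muscle. Tpm1 and Tpm3 are also transcribed from further start sites that give cytoskeletal isoforms in other cells, and Tpm1 and Tpm2 are used by smooth muscle too.

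Values are FPKM, that is, fragments scaled to the length of the transcript and to the fragments sequenced. The scale is meant to let levels be compared between genes and between libraries, within the limits given here. The deleted genes followed the titles in all 12 libraries, with Cryab at 412 FPKM or more in WT and 1.75 or less in KO and Hspb2 at 81.5 or more against 1.92 or less, while a separate genotype label contradicted the title in 6 libraries. Summed FPKM per library lay between 499509 and 691621 in 11 libraries and was 10656382 in KO on normal chow replicate 3, and size factors computed from all genes were 0.998 to 1.01. The tissue carried its markers, with the 6 skeletal muscle fibre genes summing to 37706 FPKM or more in every library, but Myh4, the main fast myosin heavy chain of mouse limb, was listed at 0 in all 12 libraries and Acta1 in 2. Of 4 cardiac markers only Myh6, which is near-identical to the slow myosin Myh7, reached 1 FPKM. In WT on normal chow replicate 2 and KO on normal chow replicates 1 and 3 the 5 lymphocyte markers summed to 46.8, 52.0 and 55.0 FPKM, against 0.991 to 4.75 in the other 9 libraries, and the differences between groups that these 3 libraries moved are given below with and without them.

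The level of each member differed by gene far more than by group. In every one of the 12 libraries the 4 fast members stood highest, Tpm2 came next and the 4 slow members lowest. Among slow troponins the order was the same in 12 of 12 libraries, with the calcium binding subunit Tnnc1 highest (180.6 ± 106 FPKM over the 12 libraries, SD), the tropomyosin binding subunit Tnnt1 next (156 ± 94.6) and the inhibitory subunit Tnni1 lowest (114 ± 71.4). Tpm3, the slow alpha tropomyosin, was at 94.0 ± 39.6 FPKM and did not stand apart from Tnni1, which exceeded it in 8 of 12 libraries. The fast side kept the same order of subunits, with Tnnc2 (16010.2 ± 2904 FPKM) above Tnnt3 (13609 ± 2197) and Tnnt3 above Tnni2 (9940.2 ± 1535) in 12 of 12 libraries. Tpm1, the fast alpha tropomyosin, averaged 10969 ± 1985 FPKM and lay below Tnnt3 in all 12 libraries and above Tnni2 in 10. Tnnc2 and Tnnt3 ranked 3 and 4 of the 11945 tested genes by mean level, Tpm1 ranked 9 and Tnni2 11. Tpm2 averaged 1602 ± 682 FPKM and ranked 32. The slow members ranked from 421 (Tnnc1) to 753 (Tpm3).

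The 9 genes are spread over 7 chromosomes, with a few close neighbours. In the GENCODE M21 annotation of GRCm38, the assembly behind the mm10 build named in the submitters' processing notes, Tnni1 is at chr1:135779434-135810989, Tnnt1 at chr7:4504570-4516382, Tnnc1 at chr14:31208312-31211729 and Tpm3 at chr3:90072649-90100902. Tnni2 (chr7:142441808-142444410) and Tnnt3 (chr7:142498836-142516009) are 54425 bases apart on the same strand, and the other fast members are Tnnc2 at chr2:164777161-164779967 and Tpm1 at chr9:67022590-67049406. Tpm2 is at chr4:43514711-43523765. The cardiac genes Tnni3 and Tnnt2 sit beside slow members, 1922 bases from Tnnt1 and 25364 bases from Tnni1. Tnni3, the cardiac inhibitory subunit, was at 0.151 to 0.530 FPKM and Tnnt2, the cardiac and embryonic troponin T, at 1.35 to 8.16 FPKM, so both were below Tnnt1 and Tnni1 in level in each library.

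Because the 4 slow members moved together across libraries, as described next, the 200 bases before their RefSeq start sites (GRCm38.p6) are shown, with Tnnc2 as a fast gene for comparison. Each window is read 5′ to 3′ on the strand of the gene, and capitals mark E-boxes (CANNTG), MCAT elements (CATTCC or its reverse complement GGAATG) and TATAAA boxes, which are named for their letters only. The windows are chr1:135799221-135799420 on the plus strand for Tnni1, chr7:4515976-4516175 on the minus strand for Tnnt1, chr14:31208112-31208311 on the plus strand for Tnnc1, chr3:90072451-90072650 on the plus strand for Tpm3 and chr2:164779735-164779934 on the minus strand for Tnnc2.
Tnni1: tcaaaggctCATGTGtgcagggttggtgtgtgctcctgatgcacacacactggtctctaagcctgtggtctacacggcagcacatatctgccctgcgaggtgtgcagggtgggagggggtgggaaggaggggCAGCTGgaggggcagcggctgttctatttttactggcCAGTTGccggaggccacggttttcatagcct
Tnnt1: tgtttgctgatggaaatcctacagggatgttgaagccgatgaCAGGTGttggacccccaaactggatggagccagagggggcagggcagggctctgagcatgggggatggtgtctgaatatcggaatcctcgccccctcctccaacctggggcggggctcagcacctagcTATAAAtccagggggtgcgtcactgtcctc
Tnnc1: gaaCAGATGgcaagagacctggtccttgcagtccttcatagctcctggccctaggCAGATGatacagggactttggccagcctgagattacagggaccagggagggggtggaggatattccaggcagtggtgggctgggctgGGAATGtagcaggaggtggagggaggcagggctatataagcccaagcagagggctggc
Tpm3: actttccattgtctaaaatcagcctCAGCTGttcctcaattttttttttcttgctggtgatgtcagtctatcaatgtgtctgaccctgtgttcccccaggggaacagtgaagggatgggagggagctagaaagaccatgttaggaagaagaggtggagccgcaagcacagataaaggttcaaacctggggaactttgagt
Tnnc2: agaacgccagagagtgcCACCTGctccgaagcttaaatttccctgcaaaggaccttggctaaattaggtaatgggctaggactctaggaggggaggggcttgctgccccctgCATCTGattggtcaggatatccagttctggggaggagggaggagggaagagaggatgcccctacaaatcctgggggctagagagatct
All 5 windows held at least 1 E-box, a sequence bound by myogenic basic helix-loop-helix factors among others, as did 57.9% of 27025 RefSeq promoter windows of the same length. Tnni1 held 3, starting 191, 68 and 31 bases before the start site, Tnnc1 and Tnnc2 held 2 each, and Tnnt1 and Tpm3 held 1 each. Only Tnnc1 held the MCAT letters, 58 bases before its start, against 10.1% of all windows. Only Tnnt1 held TATAAA, 30 bases before its start, against 10.6%. The CArG box and the MEF2 element, searched on both strands, were in 0 of the 5 windows and in 1.14% and 2.35% of all windows. Of the motifs searched, only the E-box was common to the slow members, and the fast gene shown also had it. The windows of Tnni1, Tnnt1 and Tnnc2 lie inside the annotated genes, which extend farther upstream, and that of Tnni1 lies well inside. RefSeq windows were on hand for 7 of the 9 members, and Tnni2 and Tnnt3 had none. Those of Tpm1 and Tpm2 are not shown.

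The slow troponins varied widely among mice of the same group. In WT on normal chow Tnni1 was at 119, 99.8 and 22.4 FPKM in replicates 1, 2 and 3, and on high fat diet at 12.1, 239 and 210. In KO it was at 64.5, 102 and 67.4 FPKM on normal chow and at 133, 197 and 98.0 on high fat diet. The lowest and the highest value of Tnni1 thus came from the same group, WT on high fat diet, and the 4 groups overlapped.

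Tnnt1 showed the same libraries at its extremes. It was at 191, 139 and 33.7 FPKM in WT on normal chow and at 16.7, 355 and 241 in WT on high fat diet. In KO its values were 107, 145 and 92.2 FPKM on normal chow and then 159, 251 and 143 on high fat diet. KO mice on high fat diet overlapped KO mice on normal chow by 1 library, since the lowest value on high fat diet, 143, lay under the highest on normal chow, 145.

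Tnnc1, which is the troponin C of the heart as well as of slow fibres, was at 221, 176 and 43.4 FPKM in WT on normal chow and at 18.8, 385 and 318 in WT on high fat diet. In KO it was at 123, 178 and 99.3 FPKM on normal chow and at 186, 262 and 158 on high fat diet. Tpm3 was at 112, 96.9 and 35.3 FPKM in WT on normal chow, at 28.0, 178 and 119 in WT on high fat diet, at 80.1, 92.7 and 76.7 in KO on normal chow and at 92.3, 125 and 91.8 in KO on high fat diet. WT on high fat diet replicate 1 was lowest and WT on normal chow replicate 3 second lowest for each of the 4 slow members, and WT on high fat diet replicate 2 was highest for each.

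The range was wide beside that of other genes. The highest library exceeded the lowest 19.7-fold for Tnni1, 21.2-fold for Tnnt1, 20.4-fold for Tnnc1 and 6.35-fold for Tpm3. The median of this ratio was 1.63 over the 11847 tested genes above 0 in all libraries, and 98.1%, 98.2%, 98.1% and 94.6% of them had a smaller one. Within groups, the SD of log2(FPKM + 1) was 1.38 for Tnni1, 1.37 for Tnnt1, 1.38 for Tnnc1 and 0.83 for Tpm3. It was larger in WT than in KO mice for each of the 4, at 1.91 against 0.44 for Tnni1 and 1.16 against 0.21 for Tpm3, and whether the genotypes differ in spread was not tested. In RNA from whole tissue, fewer slow fibres and less slow transcript per fibre cannot be told apart.

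**Figure D1:**
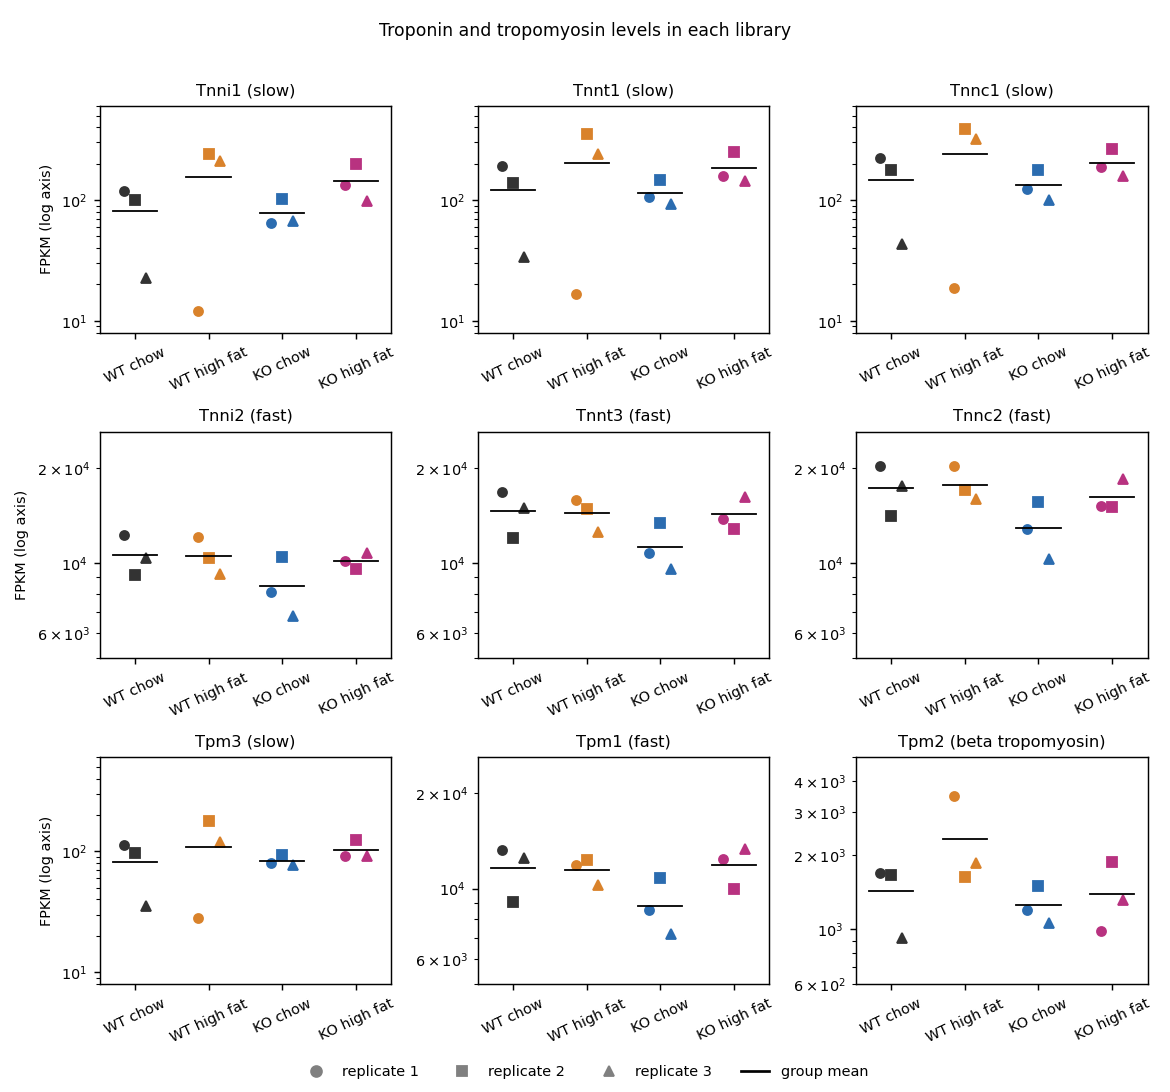
FPKM (log axis) of the 9 members in each library, with the groups along the x axis, a marker shape for each replicate and a line at each group mean. The slow members (Tnni1, Tnnt1, Tnnc1, Tpm3) were lowest in WT on high fat diet replicate 1 and WT on normal chow replicate 3, while the fast members spanned less than 2-fold and Tpm2 was highest, at 3493 FPKM, in the library where the slow members were lowest.

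The slow members followed each other closely. Over the 12 libraries, on the log2(FPKM + 1) scale, the 6 pairs of slow members had Pearson's r of 0.978 to 0.996 and Spearman's rho of 0.937 to 0.986. Each r had a permutation p of 1e-05, the smallest that 100000 permutations can give, and 1.5e-05 after Benjamini-Hochberg adjustment over the 15 relations computed. WT on high fat diet replicate 1 and WT on normal chow replicate 3 lay far below the rest, and the relation did not rest on them, since without the 2 libraries farthest from the median r was still 0.903 to 0.983. After subtracting the group means it was 0.982 to 0.997, so the shared movement was within groups. The libraries are the points here, and each pair shares its library.

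The fast members also followed each other, over a much narrower range, and apart from the slow ones. The 6 pairs of fast members had r of 0.908 to 0.968 and rho of 0.839 to 0.951, with adjusted permutation p-values of at most 6.25e-05 for r. Without the 3 lymphocyte-rich libraries the lowest of these r was 0.653, for Tnnc2 with Tpm1. The mean of the slow members and the mean of the fast members had an r of -0.12 (permutation p = 0.697) and a rho of -0.01 (permutation p = 0.974). That relation moved with the libraries taken, to r = 0.54 without the 2 farthest and to -0.45 without the 3 lymphocyte-rich ones.

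**Figure D2:**
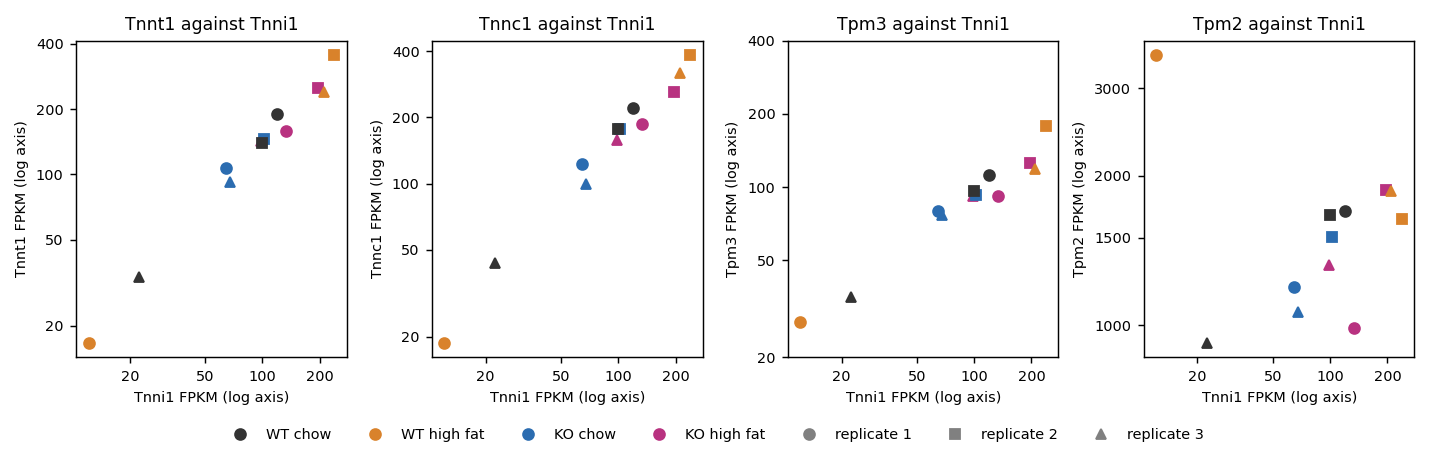
FPKM of Tnnt1, Tnnc1, Tpm3 and Tpm2 against FPKM of Tnni1 in the 12 libraries, all axes log, colour for group and marker shape for replicate. The 3 slow genes rise with Tnni1 along 1 line in all groups. Tpm2 scatters more widely and lies farthest from such a line in WT on high fat diet replicate 1, where Tnni1 was lowest and Tpm2 highest.

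Fast members were lowest in the same 3 libraries. Tnni2 was at 12298, 9149 and 10399 FPKM in WT on normal chow, 12067, 10368 and 9206 in WT on high fat diet, 8105, 10438 and 6809 in KO on normal chow and 10121, 9560.0 and 10762 in KO on high fat diet. Tnnt3 was at 16793, 11989.8 and 14935 FPKM in WT on normal chow and at 15788.5, 14759.9 and 12490.1 in WT on high fat diet, and in KO at 10782, 13393 and 9588 on normal chow and at 13817, 12833 and 16134 on high fat diet. For both genes the 3 lowest values were WT on normal chow replicate 2 and KO on normal chow replicates 1 and 3, the lymphocyte-rich libraries.

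Tnnc2 was at 20243, 14082 and 17575 FPKM in WT on normal chow and at 20198, 16983 and 15891.5 in WT on high fat diet, and in KO at 12816, 15561 and 10315 on normal chow and at 15111, 14988 and 18359.9 on high fat diet. Tpm1 was at 13268, 9089 and 12519.8 FPKM in WT on normal chow, 11913, 12313 and 10236 in WT on high fat diet, 8535, 10809.7 and 7188 in KO on normal chow and 12433, 9996.5 and 13324 in KO on high fat diet. The same 3 libraries were again the lowest for both. They also held 729 to 1729 FPKM of the 5 adipocyte markers, while the other 9 held 5.90 to 815, so that these ranges overlapped. What part these other cells had in the fast members' levels was not tested.

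The fast members spanned less than the slow members and Tpm2, but more than most genes. Their highest library exceeded the lowest 1.81-fold for Tnni2, 1.75-fold for Tnnt3, 1.96-fold for Tnnc2 and 1.85-fold for Tpm1, and the SD within groups was 0.21 to 0.25 on the log2 scale. Between 59.0% and 69.5% of the tested genes above 0 in all libraries had a smaller range. Among those with a mean of at least 10 FPKM it was 69.1% to 79.9%.

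Tpm2 did not keep to the line that the slow members shared. It was at 1694, 1665 and 923 FPKM in WT on normal chow and at 3493, 1633 and 1865 in WT on high fat diet. In KO it was at 1195, 1506 and 1065 FPKM on normal chow and at 989, 1871 and 1322 on high fat diet. The value in WT on high fat diet replicate 1 was 1.87 times the next highest and 2.32 times the median of the other libraries, in the mouse with the least Tnni1, Tnnt1, Tnnc1 and Tpm3. Over all 12 libraries Tpm2 and the mean of the slow members had an r of -0.16 (permutation p = 0.613) and a rho of 0.34 (permutation p = 0.288). Without that 1 library, left out after its value was seen, r was 0.78 (n = 11), below the r of any pair of slow members. KO on high fat diet replicate 1 departed too, since Tpm2 was second lowest there, at 989 FPKM, while Tnni1 was above its mean over the 12 libraries. With the mean of the fast members Tpm2 had an r of 0.35 (permutation p = 0.262) over the 12 libraries and of 0.18 over the 11. As a share of the summed FPKM of the 3 tropomyosins, Tpm2 was 22.6% in that library and 6.85% to 15.6% in the other 11, Tpm3 was 0.181% to 1.26% and Tpm1 77.2% to 92.9%. The 6 smooth muscle markers summed to 2431 FPKM in that library, to 2280 and 2041 in the other WT mice on high fat diet and to 1856 to 3190 in the other groups, and their part in the level of Tpm2 was not tested.

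The slow share of troponin summarised these levels. Slow troponins made up 1.06%, 1.17% and 0.231% of all troponin FPKM in WT on normal chow and 0.0991%, 2.27% and 2.0% in WT on high fat diet. In KO fed normal chow the share was 0.919%, 1.07% and 0.960%, and in KO fed the high fat diet 1.21%, 1.87% and 0.874%. The group means were 0.821% ± 0.513 in WT on normal chow, 1.46% ± 1.18 in WT on high fat diet, 0.982% ± 0.0762 in KO on normal chow and 1.32% ± 0.504 in KO on high fat diet (SD, n = 3 each). KO on normal chow was the group with the least spread, with values near those of WT replicates 1 and 2 on the same diet.

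Whether diet or genotype moved the balance of slow to fast was tested on the log2 ratio of each slow gene to its fast partner, a quantity in which the scaling of a library cancels. Tnni1/Tnni2 was -6.69, -6.52 and -8.86 in WT on normal chow, -9.96, -5.44 and -5.46 in WT on high fat diet, -6.97, -6.68 and -6.66 in KO on normal chow and -6.25, -5.60 and -6.78 in KO on high fat diet. Its group means were -7.35 ± 1.30, -6.95 ± 2.60, -6.77 ± 0.18 and -6.21 ± 0.59 in that order (SD, n = 3). KO mice on high fat diet thus had the highest mean ratio, but their 3 values overlapped with those of every other group.

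The other troponin pairs also had their highest mean in KO on high fat diet, and Tpm3/Tpm1 had its highest in KO on normal chow. In WT on normal chow, WT on high fat diet, KO on normal chow and KO on high fat diet, Tnnt1/Tnnt3 averaged -7.23 ± 1.36, -6.99 ± 2.51, -6.63 ± 0.09 and -6.31 ± 0.58. Tnnc1/Tnnc2 averaged -7.17 ± 1.30, -7.06 ± 2.61, -6.62 ± 0.14 and -6.35 ± 0.51. Tpm3/Tpm1 averaged -7.30 ± 1.02, -7.09 ± 1.43, -6.72 ± 0.16 and -6.86 ± 0.47. For each pair, KO mice spread less than WT mice on either diet.

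No difference in a ratio passed its test. For the 3 troponin pairs the ratio was higher on high fat diet by 0.11 to 0.40 log2 units in WT and by 0.27 to 0.56 in KO, and higher in KO by 0.55 to 0.60 on normal chow and by 0.67 to 0.74 on high fat diet, where the SD within groups, pooled over all 4, was 1.46 to 1.49. Tpm3/Tpm1 differed by 0.21 and -0.14 with diet in WT and KO and by 0.59 and 0.23 with genotype on normal chow and high fat diet, with a pooled SD of 0.91. The KO groups spread less than that, and for each troponin pair the diet difference in KO was larger than the SD of KO on normal chow (0.09 to 0.18) and smaller than that of KO on high fat diet (0.51 to 0.59). Averaged over the other factor, the 4 pairs differed by 0.04 to 0.48 with diet and by 0.41 to 0.66 with genotype. Of 24 exact two-sided permutation tests none had a p under 0.05. The lowest p was 0.3, for Tnni1/Tnni2 with diet in KO, and the lowest Benjamini-Hochberg adjusted p was 1. With 3 mice against 3 the smallest p possible is 0.1, and for the averaged comparisons it is 0.005.

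These differences turned on single mice. Without WT on high fat diet replicate 1 the diet difference of Tnni1/Tnni2 in WT was 1.91 in place of 0.40, and averaged over genotypes it was 1.23 in place of 0.48 (exact permutation p = 0.03, not adjusted, the one setting with a p under 0.05). Without the same mouse the genotype difference on high fat diet was -0.76 in place of 0.74. Without WT on normal chow replicate 3 the diet difference in WT was -0.35, and the genotype difference on normal chow was -0.17 in place of 0.59. The 3 other pairs moved in the same directions, and the genotype difference of Tpm3/Tpm1 on normal chow was 0.0038 in place of 0.59. With 1 library left out at a time, the diet difference in KO ran from 0.26 to 0.85 for Tnni1/Tnni2. It ran from 0.00055 to 0.57 for Tnnt1/Tnnt3 and from 0.017 to 0.53 for Tnnc1/Tnnc2. Each of these lowest values left out KO on high fat diet replicate 2. Without the 3 lymphocyte-rich libraries the genotype difference on normal chow was 1.10 to 1.14 for the troponin pairs and 0.81 for Tpm3/Tpm1. It then set KO replicate 2 alone against WT replicates 1 and 3, and WT replicate 3 was at -8.86 for Tnni1/Tnni2. The diet difference in WT was then 0.53 to 0.82 for the 4 pairs. In KO, where replicate 2 alone then stood for normal chow, the diet difference was 0.47 for Tnni1/Tnni2 and 0.22 for Tnnt1/Tnnt3. For Tnnc1/Tnnc2 it was 0.11 and for Tpm3/Tpm1 0.0079. Averaged over the other factor, the 4 pairs then differed by 0.30 to 0.64 with diet and by 0.52 to 0.92 with genotype.

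**Figure D3:**
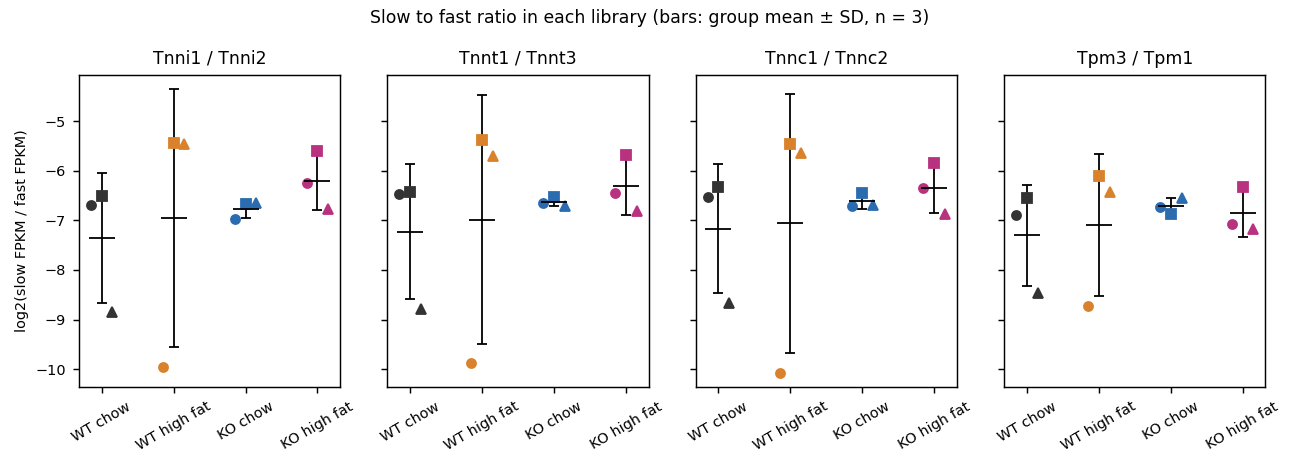
Log2 ratio of slow to fast FPKM for the 4 gene pairs in each library, by group, with marker shape for replicate and bars for the group mean ± SD (n = 3). The WT groups each hold 1 mouse far below the rest, at -8.86 and -9.96 for Tnni1/Tnni2, and all groups overlap.

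Each member was also tested by itself with limma on log2(FPKM + 1), against the background of all 11945 genes. With diet in WT, 0 of the 9 members passed an adjusted p of 0.05 where 0.1% of all genes did, and 0 had an unadjusted p under 0.05 where 8.13% did. The largest difference was that of Tpm2, higher on high fat diet by 0.68 log2 units (SE 0.33, adjusted p = 0.648). Without WT on high fat diet replicate 1 it was 0.34. The slow members differed by 0.16 to 0.41 with a 95% interval of -1.72 to 2.53 for Tnni1, and the fast members by -0.02 to 0.04 with an interval of -0.39 to 0.37 for Tnni2. As a fold of (FPKM + 1) the interval of Tnni2 ran from 0.765 to 1.29, and that of Tnni1 from 0.304 to 5.80. Without the lymphocyte-rich libraries the slow members differed by 0.41 to 0.72, the fast members by -0.17 to -0.10 and Tpm2 by 0.81.

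With diet in KO, 0 of 9 members were called where 0% of all genes were, and 1 of 9 had an unadjusted p under 0.05 where 11.3% did. That gene was Tpm1, higher on high fat diet by 0.44 (SE 0.19, unadjusted p = 0.0412, adjusted p = 0.440). Tnnt3 differed by 0.35, Tnnc2 by 0.34 and Tnni2 by 0.28, and the slow members by 0.30 (Tpm3) to 0.84 (Tnni1). The SE of Tnni1 was 0.97, where its SD within groups was 1.91 in WT and 0.44 in KO mice. limma shares 1 spread over the 4 groups, so this SE draws on WT mice that are not in the comparison. Tpm2 differed by 0.12. Without the lymphocyte-rich libraries, which leaves 1 KO mouse on normal chow whose spread is taken from the other groups, the fast values were 0.13 for Tpm1, 0.08 for Tnnt3, 0.05 for Tnnc2 and -0.04 for Tnni2. The slow values were then 0.42 for Tnni1, 0.30 for Tnnt1, 0.15 for Tnnc1 and 0.14 for Tpm3, and that of Tpm2 was -0.16.

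With genotype on normal chow, 0 of 9 members were called where 0.0586% of all genes were. 1 of 9 had an unadjusted p under 0.05, where 16.7% of all genes did, namely Tnnc2, lower in KO by 0.43 (a difference of -0.43, SE 0.18, unadjusted p = 0.0396, adjusted p = 0.287). Tpm1, Tnnt3 and Tnni2 differed by -0.40, -0.37 and -0.34 (adjusted p = 0.313, 0.300 and 0.327), while the median of all genes was -0.03. The slow members differed by 0.12 to 0.23 and Tpm2 by -0.15. The lymphocyte-rich libraries are 2 of the 3 KO and 1 of the 3 WT libraries here, and without them the 4 fast values were -0.28 (Tnnc2), -0.25 (Tpm1), -0.24 (Tnnt3) and -0.12 (Tnni2). The slow values were then 0.96 (Tnni1), 0.84 (Tnnt1), 0.85 (Tnnc1) and 0.55 (Tpm3), and that of Tpm2 was 0.27. This left KO replicate 2 alone against WT replicates 1 and 3, and WT replicate 3 was low in each slow member.

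With genotype on high fat diet, 0 of 9 members were called where 0.109% of all genes were, and 0 had an unadjusted p under 0.05 where 16.3% did. Tpm2 was nearest, at -0.71 in KO against WT (SE 0.33, adjusted p = 0.322), and it was -0.37 without WT on high fat diet replicate 1. The fast members differed by -0.13 to 0.05 and the slow members by 0.27 to 0.66. This comparison shares the WT mice on high fat diet with that of diet in WT, and so shares the library in which Tpm2 was high.

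Averaging over the other factor gave no call either. With diet averaged over genotypes 0 of 9 members were called where 0.0586% of all genes were, and 0 had an unadjusted p under 0.05 where 14% did. With genotype averaged over diets 0 of 9 were called where 0.871% of all genes were, and 0 had an unadjusted p under 0.05 where 26.6% did. The lowest adjusted p was 0.197, for Tnnc2 with a difference of -0.28, and Tpm2 differed by -0.43 (adjusted p = 0.264). Tpm2 differed by -0.26 without WT on high fat diet replicate 1 and by -0.22 without the lymphocyte-rich libraries, where Tnnc2 differed by -0.20. In the interaction of diet and genotype 0 of 9 were called where 0% of all genes were, 0 had an unadjusted p under 0.05 where 6.25% did, and the lowest adjusted p was 0.886.

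In the 4 direct comparisons no member had groups that did not overlap. Of all genes, 6.2% lay wholly higher and 6.88% wholly lower with diet in WT, 10.7% and 6.14% with diet in KO, 8.15% and 10.2% with genotype on normal chow, and 13% and 10.7% with genotype on high fat diet.

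**Figure D4:**
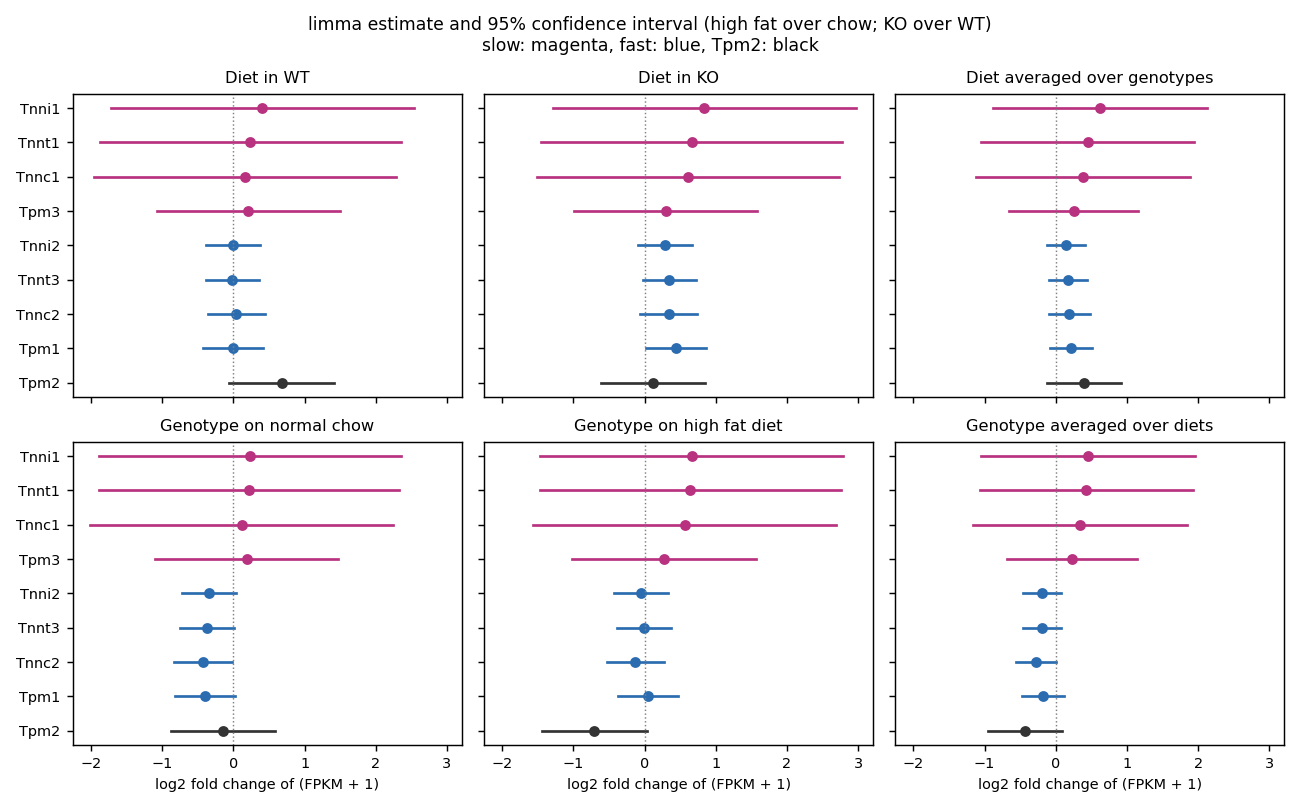
limma log2 fold change of (FPKM + 1) with its 95% confidence interval for the 9 members in 6 comparisons, positive where high fat diet exceeds normal chow (upper row) or KO exceeds WT (lower row). The intervals of the slow members (magenta) are several times as wide as those of the fast members (blue), and none of the 9 passed an adjusted p of 0.05 in any comparison.

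The genes most like the slow members were mostly other parts of the slow fibre, but not all slow fibre genes followed them. Among tested genes outside the 9, those with the highest Pearson's r with the mean of the slow members over the 12 libraries were Myl2, the slow regulatory light chain (r = 0.995), Myh6 (0.993), Atp2a2, the slow calcium pump (0.977), Myh7, the slow myosin heavy chain (0.971), Myoz2, a Z-disc protein (0.943), and Myl3, the slow essential light chain (0.908). Without the 2 libraries farthest from the median these 6 kept r of 0.882 or more. Reads of Myh6 and Myh7 may be split between these near-identical genes. The next, Atf3 (0.899) and Bmp2 (0.869), were at 0.633 and 0.583 without those 2 libraries. No p is given, because the genes were picked for their r. The other slow fibre genes of the lists below had a lower r with the slow mean. They were Myl6b (0.56), Myh7b (0.37), Casq2 (0.18), Mybpc1 (-0.06) and Pln (-0.31). Myh2, listed as a fast fibre gene, was at 0.76.

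The closest to the mean of the fast members were Kctd15 (r = 0.980), Pno1 (0.976), Mtus1 (0.976), Pfn2 (0.976), Hdgf (0.974), Tmod4, which caps thin filaments (0.971), Atp2a1, the fast calcium pump (0.970), and Larp1b (0.969), over the same 12 libraries. For Tpm2, a search added after its values were seen gave Tfpt (0.950), Mterfd3 (0.943), Chmp2a (0.935), Frzb (0.926), Wrap53 (0.915), Mybpc1 (0.909), Slc38a3 (0.902) and Tmem218 (0.901). Mybpc1, the slow myosin binding protein C, was at its highest, 870.3 FPKM, in WT on high fat diet replicate 1, as Tpm2 was, and its r with the mean of the slow members was -0.06. Without that library the 8 genes had r of 0.767 to 0.889 with Tpm2.

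Other genes of the thin filament and of fibre type gave 1 call. The lists held 3 other troponin and tropomyosin genes (2 tested), 9 thin filament partners (7 tested), 10 slow fibre genes (10 tested), 11 fast fibre genes (10 tested), 12 regulators of fibre type (11 tested) and 4 developmental sarcomere genes (4 tested). Over the 7 comparisons, the only one that passed an adjusted p of 0.05 was Myl4, the embryonic and atrial light chain, which rose in KO averaged over diets by 1.83 log2 units (SE 0.26, adjusted p = 0.0169). The call was lost without the 3 lymphocyte-rich libraries, where the difference was 1.795 (adjusted p = 0.188), and without WT on normal chow replicate 1, where it was 1.82 (adjusted p = 0.0557). The next largest in that comparison were Myh3, the embryonic myosin heavy chain, at 1.43 (SE 0.32, adjusted p = 0.0584), and Actc1, the cardiac and embryonic actin, at 1.32 (SE 0.48, adjusted p = 0.124). The median of the 4 developmental sarcomere genes there was 1.13, where that of all genes was -0.02. Of these 4, 3 were higher in KO with an unadjusted limma p under 0.05, a p that 26.6% of all genes reached in either direction. Of the 10 slow fibre genes, 0 passed in any comparison, and their median difference was 0.50 with diet in WT, where that of all genes was -0.01. The largest of them was Mybpc1, at 1.15 with diet in WT (SE 0.24, adjusted p = 0.110) and at -0.95 with genotype on high fat diet (SE 0.24, adjusted p = 0.0971). Of the 10 fast fibre genes 0 passed, and their median was -0.31 with genotype on normal chow and 0.35 with diet in KO, beside -0.38 and 0.34 for the 4 fast members. Among the 11 regulators, which include Sox6, a repressor of slow genes in fast fibres, 0 passed, as among the 7 thin filament partners and the 2 other troponin and tropomyosin genes.

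**Figure D5:**
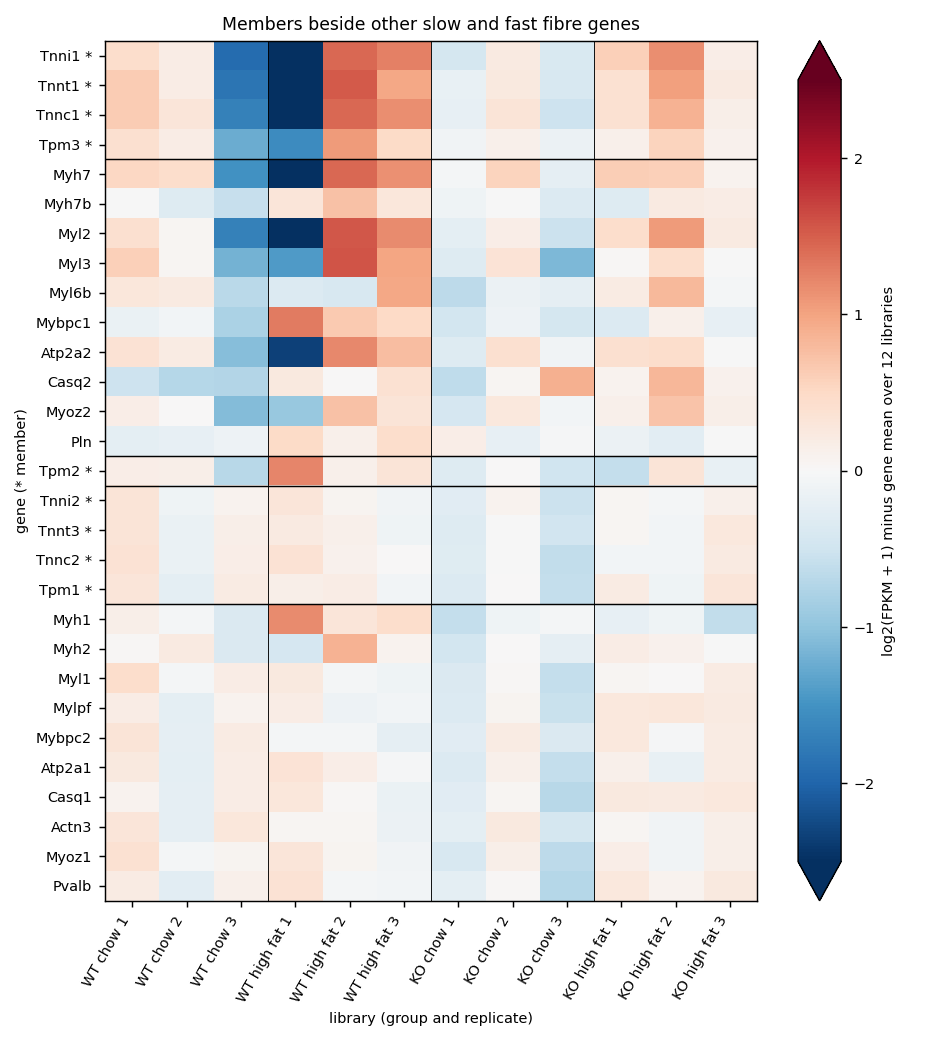
Log2(FPKM + 1) of the members (starred) and of other slow and fast fibre genes in the 12 libraries, each gene centred on its mean and the colours ending at 2.5 log2 units either way. Myh7, Myl2, Myl3, Atp2a2 and Myoz2 share the slow members' low values in WT on normal chow replicate 3 and WT on high fat diet replicate 1. Myl6b, Myh7b, Casq2 and Pln follow the slow members less closely. Mybpc1 and Tpm2 are highest in WT on high fat diet replicate 1, and most fast genes vary less than the slow members.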

How the data were processed

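RNA from proximal hind limb muscle was sequenced by the authors as paired-end reads on a HiSeq2000. The submitters' processing notes name TopHat2 2.0.8b, Cuffdiff 2.1.1 and mm10. The authors deposited 1 value per symbol and library, on an FPKM scale as read from the values and from Cuffdiff, with 23179 rows a file. Depth in reads is unknown, so no counting error is given.

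Groups were taken from titles. Values were tested as log2(FPKM + 1), a scale that understates changes of low genes, with limma 3.58.1 (R 4.3.3, intensity trend, 4 group means, 8 residual degrees of freedom) on genes at 1 FPKM or more in 3 or more libraries, with Benjamini-Hochberg adjustment and a threshold of 0.05. For limma, an exact 0 in a gene with a median of 100 FPKM or more (8 values, in no member) was set missing. Correlations, shares of genes whose groups do not overlap, and marker sums used the values as listed, with such a 0 kept. Ratios were tested by exact two-sided permutation (20 relabellings, or 400 within strata). Other values came from Python 3.11.15 with SciPy 1.17.1. The limma test was also run on simulated data with equal spread in all groups and changes planted only in genes of below-median spread. That run does not bear on genes as variable as the slow members.

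Named are the 9 members, the 8 genes most like the slow and the fast mean, and, of the lists, those called or furthest changed. The members and lists were chosen with earlier results of these data known. The mice are separate animals, and p-values measure the spread between them, which limma pooled over all 4 groups. Alternatives were other pseudocounts, filters and scalings, a replicate block, only the groups compared, and libraries left out.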

Additional observations from a re-analysis of the deposited data

How the results depend on the processing

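The 9 members gave 0 limma calls in the 137 alternative fits of the 7 comparisons, and the lowest adjusted p of a member in any of them was 0.0826. Some values changed sign, and the cause was not tested. Quantile normalization gave, in log2 units, for diet in WT Tnni2 0.00939 and Tnnc2 -0.0821, for diet in KO Tpm2 -0.0271, for genotype on normal chow Tpm2 0.0365, for genotype on high fat diet Tnnt3 0.0251 and Tnnc2 0.0821, for genotype averaged over diets Tnnt3 3.26e-06, Tnnc2 8.75e-06 and Tpm1 0.00402. Size factors gave for diet in WT Tpm1 0.000373. Leaving out the 3 lymphocyte-rich libraries, an alternative added after the data were seen, gave for diet in WT Tnnc2 -0.10, for diet in KO Tpm3/Tpm1 0.0079, Tnni2 -0.0424 and Tpm2 -0.16, for genotype on normal chow Tpm2 0.27, for diet averaged over genotypes Tnni2 -0.076, Tnnt3 -0.0327, Tnnc2 -0.0263 and Tpm1 -0.0202. Of 1062 alternative values of single members 67 changed sign. Leaving out 1 library at a time gave the following ranges for the slow to fast ratios with a change of sign or of call. For diet in WT, they were Tnni1/Tnni2 -0.35 to 1.91, Tnnt1/Tnnt3 -0.56 to 1.69, Tnnc1/Tnnc2 -0.69 to 1.61 and Tpm3/Tpm1 -0.37 to 1.03. With diet in KO, the ratio differences were Tpm3/Tpm1 -0.41 to 0.0205. For genotype on normal chow, they were Tnni1/Tnni2 -0.17 to 1.00, Tnnt1/Tnnt3 -0.19 to 1.00 and Tnnc1/Tnnc2 -0.20 to 0.97. With genotype on high fat diet, the ratio differences were Tnni1/Tnni2 -0.76 to 1.498, Tnnt1/Tnnt3 -0.77 to 1.48, Tnnc1/Tnnc2 -0.79 to 1.51 and Tpm3/Tpm1 -0.59 to 0.72. For diet averaged over genotypes, they were Tnni1/Tnni2 0.10 to 1.23, Tnnt1/Tnnt3 -0.12 to 1.00, Tnnc1/Tnnc2 -0.21 to 0.94 and Tpm3/Tpm1 -0.26 to 0.45. With genotype averaged over diets, the ratio differences were Tnni1/Tnni2 -0.0886 to 1.04, Tnnt1/Tnnt3 -0.0881 to 1.04 and Tnnc1/Tnnc2 -0.12 to 1.03. For diet in WT, single genes gave Tnni1 -0.34 to 1.77, Tnnt1 -0.58 to 1.59, Tnnc1 -0.60 to 1.54, Tpm3 -0.32 to 0.99, Tnni2 -0.11 to 0.10, Tnnt3 -0.15 to 0.0935, Tnnc2 -0.10 to 0.16 and Tpm1 -0.17 to 0.10. With diet in KO, single genes gave Tpm2 -0.12 to 0.34. For genotype on normal chow, single genes gave Tnni1 -0.51 to 0.67, Tnnt1 -0.53 to 0.70, Tnnc1 -0.60 to 0.56, Tpm3 -0.33 to 0.49 and Tpm2 -0.44 to 0.00281. With genotype on high fat diet, single genes gave Tnni1 -0.70 to 1.39, Tnnt1 -0.71 to 1.46, Tnnc1 -0.82 to 1.32, Tpm3 -0.51 to 0.81, Tnni2 -0.14 to 0.0531, Tnnt3 -0.10 to 0.0645 and Tpm1 -0.0386 to 0.17. For diet averaged over genotypes, single genes gave Tpm3 -0.0145 to 0.64. With genotype averaged over diets, single genes gave Tnni1 -0.24 to 0.81, Tnnt1 -0.24 to 0.84, Tnnc1 -0.35 to 0.72 and Tpm3 -0.16 to 0.50. The groups share replicate numbers, which were not taken as pairs of mice. Deviations of same-numbered mice correlated at -0.81 to 0.39, over 0.1 in 2 of 12 pairs. These correlations cannot settle whether the mice were paired. With the replicate block 0 members were called, the diet difference of Tnni1/Tnni2 in WT was still 0.40 (exact sign-flip permutation p = 0.75), and calls over all genes for genotype averaged over diets were 40 against 104. That count was 11 to 194 over the other settings and 10 (without WT on normal chow replicate 1) to 1206 (without KO on normal chow replicate 2) with 1 library left out. Calls over all genes were 12 for diet in WT (1 to 12, and 1 to 32 with 1 library left out), 0 for diet in KO (0 to 16, and 0 to 10), 7 for genotype on normal chow (4 to 9, and 4 to 14), 13 for genotype on high fat diet (5 to 26, and 4 to 84), 7 for diet averaged over genotypes (1 to 9, and 1 to 18) and 0 for the interaction (0 to 1, and 0 to 1), so that each background percentage holds for the one fit it is given with. With 3 mice a group the spread of the slow members limits what can be seen of them, and read depth is unknown.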

Other observations

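The only gene of the lists to pass the test was followed in each library. Myl4, a myosin light chain of embryonic muscle and of the atria, was at 8.06, 8.74 and 8.39 FPKM in WT on normal chow and at 8.44, 5.93 and 12.1 in WT on high fat diet. In KO it was at 18.4, 24.7 and 40.7 FPKM on normal chow and at 28.9, 73.1 and 30.3 on high fat diet. On each diet the 3 KO libraries lay above the 3 WT libraries, as they did for 8.15% of all genes on normal chow and for 13% on high fat diet. Myl4 was picked for its genotype difference in these same libraries, so that separation adds no further support. Its difference was 1.55 log2 units on normal chow (limma adjusted p = 0.262) and 2.11 on high fat diet (adjusted p = 0.0595). Myl4 did not follow the slow members, with an r of 0.21 over the 12 libraries.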
